A study of Rattus norvegicus with 33 samples.

Results

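The miR-30 family was followed in rat plasma as 7 mature miRNAs, the guide (5p) arms rno-miR-30a-5p, rno-miR-30b-5p, rno-miR-30c-5p, rno-miR-30d-5p and rno-miR-30e-5p and the 3p arms rno-miR-30a-3p and rno-miR-30e-3p, written below without the species prefix rno. They were chosen by name, as rows found in the raw count tables of all 6 liver injury models, and are 7 of the 264 miRNAs listed in every table. The other 4 listed arms of the family were read too sparsely to follow: miR-30b-3p reached at most 8 reads in a library, miR-30c-1-3p 1, miR-30c-2-3p 16 and miR-30d-3p 3.

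Plasma small RNA was sequenced from male Sprague-Dawley rats aged 6 weeks, 5 per group, given a toxicant or only its solvent by stomach tube. The hepatocellular models were acetaminophen (APAP, 1500 mg/kg after a 12 h fast) and thioacetamide (TAA, 100 mg/kg), sampled at 3, 6, 12 and 24 h, and the cholestasis models were α-naphthylisothiocyanate (ANIT, 150 mg/kg) and 4,4'-methylenedianiline (MDA, 250 mg/kg), sampled at 3, 6, 12, 24 and 48 h. The steatosis models were carbon tetrachloride (CCl4, 300 mg/kg daily, Day 1, 3 and 5) and dexamethasone (DEX, 15 mg/kg daily, Day 1, 2 and 3). Carboxymethylcellulose was the vehicle of APAP, TAA and MDA, and corn oil that of ANIT, CCl4 and DEX, with 1 vehicle group shared by CCl4 and DEX. The vehicle groups are listed at 0 h, or at Day 0 for CCl4 and DEX. None is matched in time to a treated group, so treatment and time since dosing cannot be told apart against vehicle. The 12 h fast is given for the treated APAP groups and not for their vehicle group.

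The deposited tables hold 29 distinct libraries, 24 treated and 5 vehicle, so each time point is 1 column of reads without replicates, and no label says if it holds plasma of 1 rat or of several. For ANIT the vehicle, 12 h, 24 h and 48 h groups have 2 labelled samples each but 1 column, and whether that column is a sum, a mean or 1 of the samples is not given. The counting intervals of these groups take it as 1 library. Depth ran from 30566 to 383330 miRNA reads in treated libraries and from 14176 (MDA vehicle) to 225741 in vehicle libraries. The summed share of 6 hepatocyte miRNAs, which include miR-122-5p, was 6.33% to 71.3% of reads in treated libraries, against 1.57% to 4.14% in vehicle libraries. Of 6 detected red cell miRNAs the summed share was 0.0843% to 6.80% in treated libraries, against 3.18% to 6.61% in vehicle libraries. For 7 leukocyte miRNAs it was 0.0149% to 0.661% in treated libraries, against 0.550% to 0.908% in vehicle libraries. No member of these 3 lists that the tables hold was at 0 reads in every library. In plasma, fewer cells of a type shedding RNA and less RNA shed per cell cannot be told apart. The part of these shifts in the changes of the miR-30 members was not tested.

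A miRNA hairpin is cut into a 5p and a 3p arm, of which the one kept by the Argonaute protein, the guide, represses messenger RNAs that pair with its seed, while the other, the passenger, is mostly degraded. The guides of the miR-30 family share their seed and are abundant in liver, kidney and other epithelia. In human and mouse cells, members of the family are known to repress genes of autophagy (miR-30a), lipoprotein assembly (miR-30c) and mesenchymal transition.

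The mature sequences below, from RefSeq (GRCr8), show how close the guides are to each other, and capitals mark the seed (bases 2 to 8 from the 5′ end).

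miR-30a-5p: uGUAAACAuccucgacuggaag
miR-30e-5p: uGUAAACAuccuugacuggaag
miR-30c-5p: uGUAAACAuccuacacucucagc
miR-30a-3p: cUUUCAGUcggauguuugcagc

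RefSeq sequences were matched for 4 of the 7 members, and miR-30b-5p, miR-30d-5p and miR-30e-3p are named only. miR-30a-5p lies at chr9:33233946-33233967 and miR-30a-3p at chr9:33233987-33234008 of the plus strand, both within the Mir30a hairpin. miR-30e-5p lies at chr5:139637504-139637525 of the minus strand. miR-30c-5p is encoded identically by Mir30c1 (chr5:139634505-139634527, minus strand) and Mir30c2 (chr9:33253695-33253717, plus strand), so its reads cannot be assigned to 1 locus. The Mir30c1 and Mir30e hairpins are 2906 bases apart, and Mir30a and Mir30c2 are 19670 bases apart.

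The 3 matched guides have the same seed. Over 22 aligned bases miR-30a-5p and miR-30e-5p differ by a single substitution, C13U, counted from the 5′ end of miR-30a-5p. Against miR-30c-5p, miR-30a-5p differs at 5 bases (C13A, G14C, G18C, G19U and A20C). The seed of miR-30a-3p is another one. No source used here says how mismatched reads were assigned, so the split of reads between near-identical members, such as miR-30a-5p and miR-30e-5p, is uncertain.

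The hairpin of miR-30a shows where its arms lie, with the mature arms in capitals.

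Mir30a: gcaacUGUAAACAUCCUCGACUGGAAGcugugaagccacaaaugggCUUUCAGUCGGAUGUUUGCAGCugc

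In vehicle plasma the family was dominated by a pair of guides, and the 3p arm of miR-30e was more abundant than its 5p arm. Guide is used throughout as a name for the 5p arms, whichever arm had more reads. miR-30a-5p averaged 12587 ± 1757 and miR-30d-5p 8847 ± 1970 RPM (reads per 1000000 miRNA reads; SD, n = 5 vehicle libraries), ranks 12 and 19 of the 264 miRNAs. The others averaged 2089 ± 674 (miR-30c-5p), 2069.5 ± 373 (miR-30e-3p), 1122 ± 238 (miR-30a-3p), 845 ± 230 (miR-30e-5p) and 669.9 ± 300 (miR-30b-5p). Neighbours in this order overlapped in their ranges over the vehicle libraries, apart from miR-30d-5p and miR-30c-5p. As a share of all miRNA reads the family made up 1.35% (APAP 12 h) to 5.52% (APAP 24 h) of treated libraries, with a median of 2.05%, against 2.50% to 3.10% of vehicle libraries.

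The levels by library, before any composition scaling, separated the members. miR-30a-3p ranged from 506 (TAA 24 h) to 2953 (DEX Day 1) RPM in treated libraries with a median of 1658, against 1167 (APAP), 1482 (TAA), 894 (ANIT), 917 (MDA) and 1147 (CCl4 and DEX) in vehicle libraries. It lay above all 5 vehicle libraries in 16 of 24 treated libraries and below all 5 in 1. Over the 160 miRNAs listed in every table with at least 20 reads in 1 library, 14.6% of treated values lay above and 48% below all 5 vehicle libraries. miR-30e-5p, at the opposite end, ranged from 126 (MDA 24 h) to 856 (TAA 24 h) RPM in treated libraries with a median of 388, against 849 (APAP), 756 (TAA), 854.5 (ANIT), 1199 (MDA) and 567 (CCl4 and DEX) in vehicle libraries. It lay below all 5 vehicle libraries in 19 of 24 treated libraries and above all 5 in 0.

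miR-30a-5p ranged more widely, from 3676 (MDA 24 h) to 33436 (MDA 3 h) RPM in treated libraries with a median of 8177, against 13370 (APAP), 11493 (TAA), 12997 (ANIT), 14814 (MDA) and 10259.5 (CCl4 and DEX) in vehicle libraries. Below all 5 vehicle libraries lay 17 of 24 treated libraries, and above all 5 lay 6, which were APAP 24 h, TAA 24 h, ANIT 24 h and the first 3 times of MDA. miR-30d-5p ranged from 4041 (TAA 6 h) to 22039 (APAP 24 h) RPM in treated libraries with a median of 7464, against 9741 (APAP), 11705 (TAA), 6558 (ANIT), 8465 (MDA) and 7766 (CCl4 and DEX) in vehicle libraries. It overlapped the vehicle range in most libraries, with 5 of 24 above and 5 below all 5 vehicle libraries.

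miR-30b-5p had 69.2 (ANIT 3 h) to 2530.5 (TAA 24 h) RPM in treated libraries with a median of 415, against 722 (APAP), 272 (TAA), 477 (ANIT), 847 (MDA) and 1032 (CCl4 and DEX) in vehicle libraries. Only APAP 24 h and TAA 24 h, 2 of 24, were above all vehicle libraries, and 9 were below. miR-30c-5p had 332 (TAA 6 h) to 2921 (DEX Day 1) RPM in treated libraries with a median of 711, against 2780.0 (APAP), 1573 (TAA), 1332 (ANIT), 1975 (MDA) and 2786 (CCl4 and DEX) in vehicle libraries. In 16 of 24 treated libraries it was below all 5 vehicle libraries, and in 1 above. miR-30e-3p had 647 (TAA 24 h) to 2802 (DEX Day 2) RPM in treated libraries with a median of 1858, against 2356 (APAP), 2359 (TAA), 1928 (ANIT), 1481 (MDA) and 2224 (CCl4 and DEX) in vehicle libraries. It was above all 5 vehicle libraries in 9 treated libraries and below all 5 in 9.

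**Figure D1:**
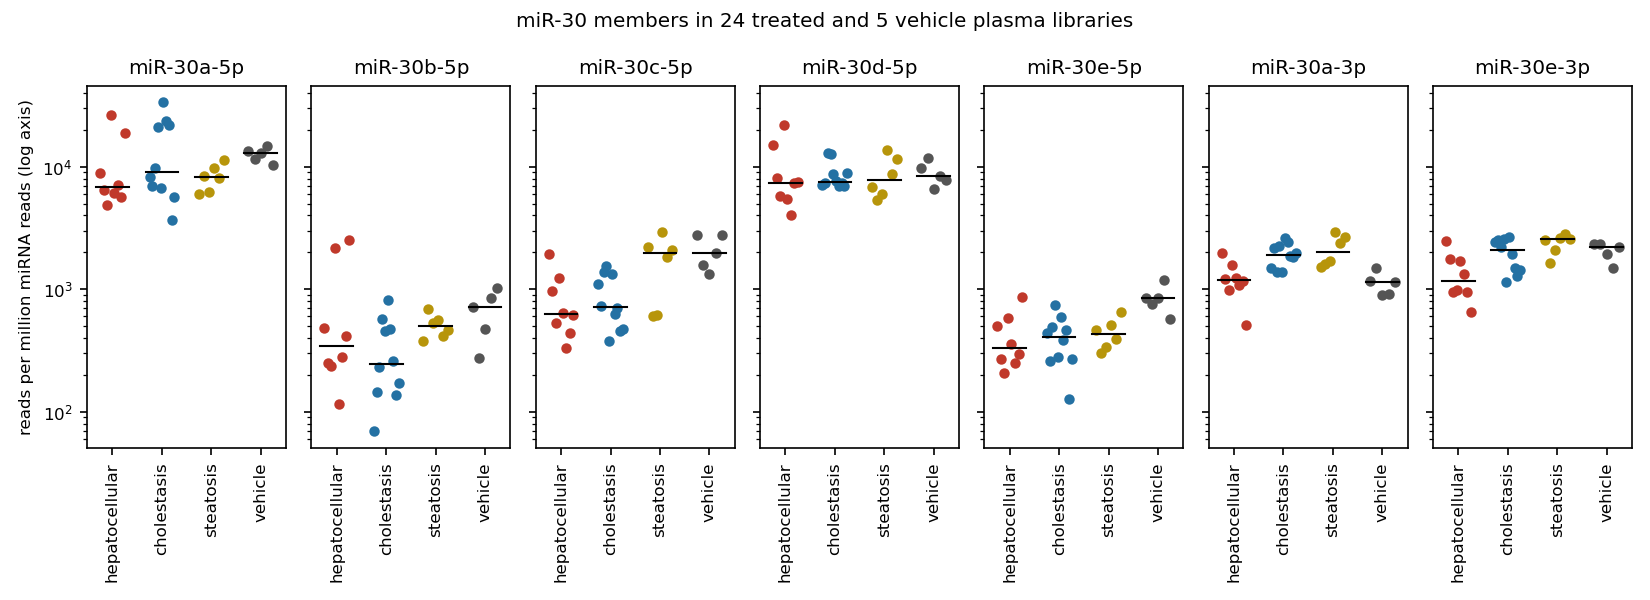
RPM (log axis) of each miR-30 member, 1 point per library, for treated libraries by injury type and for the 5 vehicle libraries, with the median as a line. miR-30a-3p lies above all vehicle libraries in 16 of 24 treated libraries, and miR-30e-5p below all of them in 19.

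The make-up of the family's 5p reads, which does not depend on how libraries are scaled, moved from library to library. miR-30d-5p took 17.4% (MDA 3 h) to 61.5% (MDA 24 h) of the 5p reads in treated libraries, against 35.5% (APAP), 45.4% (TAA), 29.5% (ANIT), 31.0% (MDA) and 34.7% (CCl4 and DEX) in vehicle libraries. It was above its own vehicle library in 18 of 24 libraries, in all libraries of APAP, ANIT, CCl4 and DEX, in 2 of 5 of MDA and in 1 of 4 of TAA. The exact 95% interval of the odds ratio excluded 1 in 17 of the 18 and in 5 of the 6 that were below. miR-30e-5p was below its own vehicle library in 23 of 24 libraries (interval excluding 1 in 12), with the exception of CCl4 Day 1, and miR-30c-5p in 22 of 24 (19), with the exceptions of ANIT 3 h and CCl4 Day 1. All libraries of a model share 1 vehicle library, so these counts are not independent, and the intervals cover counting error only.

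The shift was widest in MDA, in which the leading guide changed from miR-30a-5p to miR-30d-5p between 12 h and 24 h. miR-30a-5p made up 54.3% of 5p reads in the MDA vehicle library (95% interval 49.2% to 59.3%), 76.3% at 3 h (74.0% to 78.6%), 73.7% at 6 h, 71.2% at 12 h, 32.2% at 24 h (30.2% to 34.3%) and 36.3% at 48 h. miR-30d-5p made up 31.0% in vehicle, 17.4% at 3 h, 21.6% at 6 h, 24.2% at 12 h, 61.5% at 24 h and 57.8% at 48 h. miR-30a-5p had 21821 RPM at 12 h and 3676 at 24 h, while miR-30d-5p had 7420 and 7019, so the level of miR-30a-5p moved most. The summed hepatocyte miRNAs made up 37.0% of reads at 12 h and 61.1% at 24 h, and 6 epithelial miRNAs 0.333% and 0.0424%. Their part in the shift was not tested. The lead passed the other way between 12 h and 24 h in APAP, TAA and ANIT. There miR-30a-5p went from 42.1% to 50.5% in APAP, 40.0% to 62.0% in TAA and 39.5% to 57.7% in ANIT. For miR-30d-5p it was 49.4% to 41.9% in APAP, 51.8% to 24.8% in TAA and 52.0% to 34.6% in ANIT.

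In TAA at 24 h miR-30b-5p and miR-30a-5p both gained. miR-30b-5p had 8.35% of 5p reads against 1.06% in the TAA vehicle library, an odds ratio of 8.54 (4.46 to 18.8). miR-30a-5p had 62.0% against 44.5% in vehicle, an odds ratio of 2.03 (1.76 to 2.34). miR-30b-5p was also above its own vehicle library in APAP at 24 h (4.15% against 2.63% in vehicle, odds ratio 1.60, 1.13 to 2.35). In all it was above the vehicle library in 5 of 24 libraries and below in 19. miR-30b and miR-30d come from neighbouring hairpins in mammals, and in TAA at 24 h the share of miR-30d-5p was lower (24.8% against 45.4% in vehicle), while in APAP at 24 h it was higher (41.9% against 35.5% in vehicle).

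**Figure D2:**
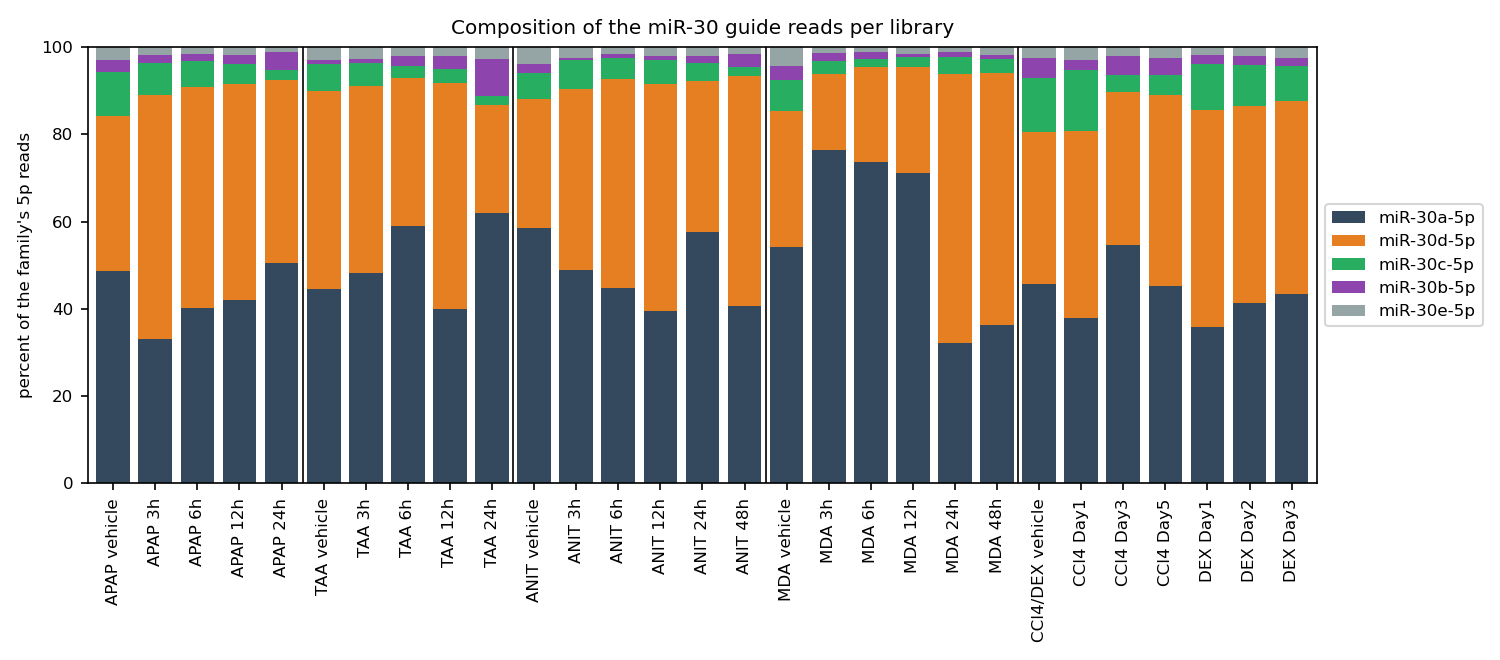
Share of the family's 5p reads taken by each guide, in percent, 1 bar per library, with each model's vehicle library at the left of its times and vertical lines between vehicle groups. In MDA miR-30a-5p takes 71.2% at 12 h and 32.2% at 24 h, and miR-30b-5p is widest in TAA at 24 h (8.35%).

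Against the own vehicle library, scaled by TMM (trimmed mean of M-values) within each model, miR-30a-3p was the member most often higher. A miRNA was called by a rule of size, 2-fold or more in either direction (a ratio down to 0.5 or below) and an exact 95% counting interval that leaves out 1, which carries no p-value. miR-30a-3p was called higher in 19 of 24 libraries and lower in 0. miR-30d-5p was called higher in 10 and lower in 0, miR-30a-5p in 8 and 0, miR-30b-5p in 5 and 6, miR-30e-3p in 3 and 0, miR-30e-5p in 1 and 4, and miR-30c-5p in 0 and 2. Together this is 46 higher and 12 lower calls in 168 ratios, 27.4% and 7.14%, while over all measured miRNAs 20.1% of ratios were called higher and 20.5% lower. Without miR-30a-3p the other 6 members were called higher in 18.75% of ratios, near that background, and lower in 8.33%, below it.

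All 7 members passed the minimum of 20 reads in 1 library of each model. In MDA, with the shallowest vehicle library, miR-30a-3p (13 reads), miR-30b-5p (12) and miR-30e-5p (17) passed through treated libraries alone, as did miR-30b-5p in TAA (9 reads in vehicle). Leaving out MDA, the family had 35 higher and 5 lower calls, and leaving out TAA 36 and 12.

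These calls depend on the scaling. By total counts the family had 13 higher and 48 lower calls in 168 ratios, 7.74% and 28.6%, beside 9.84% and 41.4% over all measured miRNAs. Without miR-30a-3p the other 6 members were higher in 2.78% and lower in 32.6% of ratios. miR-30a-3p was then higher in 9 and lower in 1, miR-30c-5p lower in 14, miR-30b-5p and miR-30e-5p lower in 11 each, and miR-30d-5p higher in 1 and lower in 2. TMM put log2 ratios above total counts by 0.00 (ANIT 3 h) to 2.40 (APAP 12 h), for every miRNA of a library alike. Relative to the median of all measured miRNAs of the same library, the median of the 7 members was highest in APAP 24 h (log2 1.71), ANIT 48 h (1.40), TAA 12 h (1.31) and APAP 12 h (1.00), and lowest in ANIT 6 h (-0.53) and APAP 3 h (-0.52), and this difference is the same under both scalings.

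Vehicle libraries differed from each other too, which sets how far a ratio to 1 of them can be read. With 1 TMM over all libraries, the highest vehicle value was 4.89-fold the lowest for miR-30b-5p, 2.61-fold for miR-30c-5p, 2.27-fold for miR-30e-3p, 1.90-fold for miR-30a-3p, 1.72-fold for miR-30d-5p, 1.40-fold for miR-30e-5p and 1.17-fold for miR-30a-5p. When a call had to hold against each of the 5 vehicle libraries, miR-30a-3p was higher in 17 of 24 libraries, miR-30a-5p in 7, miR-30d-5p in 4, miR-30b-5p in 2, and miR-30e-5p in 1 and lower in 1, while miR-30c-5p and miR-30e-3p had no call. Over all measured miRNAs, 11.7% of ratios were higher and 7.33% lower under that demand. The libraries in which miR-30a-3p had no such call were APAP at 3 h and 6 h, TAA at 3 h and 24 h, ANIT at 3 h and 12 h, and CCl4 at Day 1.

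Single libraries show the size of these ratios. In APAP miR-30a-3p had 55 reads in vehicle, 103 at 3 h, 135 at 6 h, 286 at 12 h and 382 at 24 h. Its ratio to vehicle was 1.93 (1.38 to 2.73) at 3 h, 2.46 at 6 h, 4.48 (3.34 to 6.09) at 12 h and 3.92 (2.95 to 5.30) at 24 h. By total counts the 12 h ratio was 0.850 and the 24 h ratio 1.36. In DEX miR-30a-3p was 2.64-fold higher on Day 1 (2.22 to 3.14), 2.67-fold on Day 2 and 2.58-fold on Day 3, and 2.58-fold, 2.07-fold and 2.35-fold higher by total counts.

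miR-30b-5p had the widest ratios of the family, in both directions. It was 32.8-fold higher (17.2 to 71.9) in TAA at 24 h, with 970 reads against 9 in vehicle, and 9.30-fold higher by total counts. In APAP at 24 h it was 8.72-fold higher (6.16 to 12.7), with 525 reads against 34 in vehicle, and 3.03-fold higher by total counts. In ANIT at 3 h, by contrast, its ratio was 0.145 (0.0280 to 0.478), with 3 reads against 24 in vehicle. miR-30a-5p was 5.73-fold higher (5.28 to 6.23) in APAP and 5.77-fold higher (5.20 to 6.41) in TAA at 24 h, and 1.99-fold and 1.64-fold higher by total counts. In these libraries 41.5% (APAP 24 h) and 43.9% (TAA 24 h) of all measured miRNAs were called higher, and 32.3% and 35.8% lower.

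**Figure D3:**
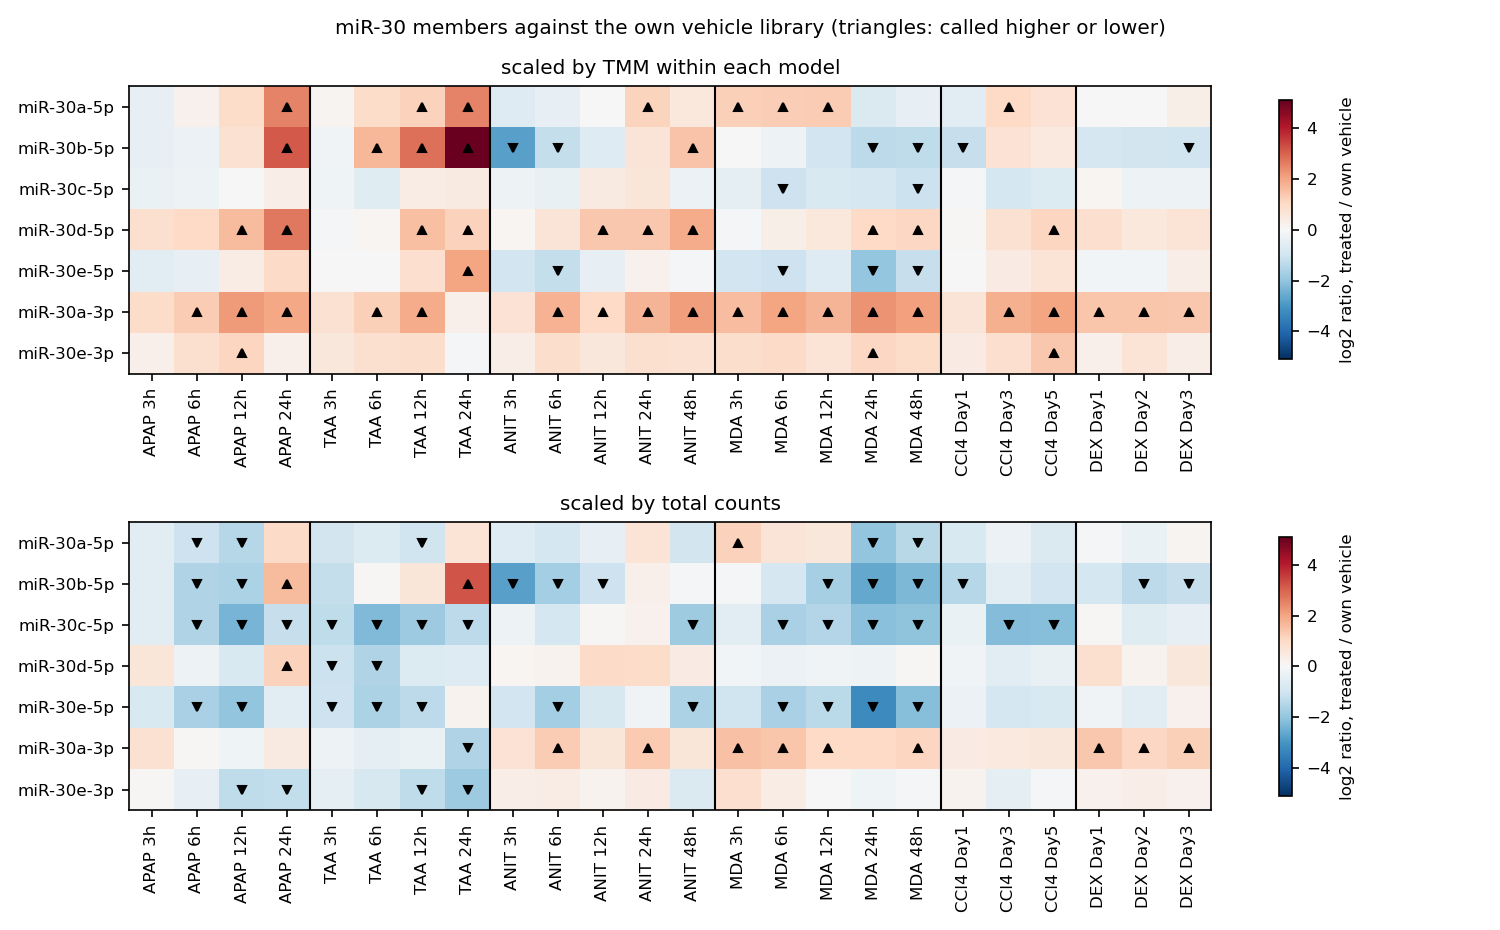
Log2 ratio of each member to the own vehicle library in the 24 treated libraries, with TMM within each model (top) and total counts (bottom), and triangles where the rule of size called the ratio higher (up) or lower (down). With TMM 46 ratios are called higher and 12 lower, with total counts 13 and 48.

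To compare injury types, 11 libraries were fitted together with edgeR's quasi-likelihood test: every vehicle library and, per model, the treated one of 24 h or Day 1, so that models stand as replicates. Of the 5 guides, 4 rose in the hepatocellular models with TMM scaling, and 1 of them, miR-30b-5p, with total counts too. The vehicle library was kept as a block. The fit by injury type takes the spread mostly from all tested miRNAs together, and a member's own spread between 2 models weighs little. In edgeR's test with Benjamini-Hochberg adjustment over 134 miRNAs, miR-30b-5p rose by log2 4.16 (SE 0.82, adjusted p = 6.00e-06), miR-30a-5p by 2.69 (SE 0.78, adjusted p = 0.00173), miR-30d-5p by 2.11 (SE 0.77, adjusted p = 0.0136) and miR-30e-5p by 1.65 (SE 0.73, adjusted p = 0.0415), the last with the opposite sign in total counts (-0.18). The fifth guide and the 3p arms did not pass, with log2 changes of 0.58 for miR-30c-5p, 1.29 for miR-30a-3p and 0.27 for miR-30e-3p. So 4 of 7 members were called higher and 0 lower, beside 26.9% of all tested miRNAs higher and 32.1% lower, and the members' median was 1.65 against -0.47 over all tested miRNAs.

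With total counts only miR-30b-5p of these passed (log2 2.35), beside 8.96% of tested miRNAs higher and 54.5% lower, since that scaling moved the median of all tested miRNAs to -2.30. The members' median was then -0.18, and the changes of miR-30e-5p (-0.18), miR-30c-5p (-1.26), miR-30a-3p (-0.55) and miR-30e-3p (-1.56) were below 0 without passing the test. Relative to the median of all tested miRNAs, the members' median was 2.13 with TMM and 2.12 with total counts, and miR-30b-5p was 4.63 and 4.66 above it. miR-30d-5p lost its call without APAP, CCl4 or DEX (1.96 to 2.01), miR-30e-5p without TAA, CCl4 or DEX (1.04 to 1.56) and with no filter beyond 1 read (1.72, edgeR adjusted p = 0.0510), and all 4 lost it with all 24 treated libraries in the fit. With all 24 treated libraries the times of a model count as replicates, and 5 of 148 tested miRNAs were called higher and 3 lower in the hepatocellular models. Where APAP or TAA is left out, the lone model of its type is assumed to vary like the others. In the fit of 11 libraries with TMM scaling, 3 of 3 tested hepatocyte miRNAs (median log2 5.27) and 2 of 3 epithelial miRNAs (3.93) were higher. Lower were 3 of 6 tested leukocyte, 2 of 4 red cell, 2 of 3 muscle and 1 of 1 kidney miRNAs. The part of these lists in the members' change was not tested.

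In the cholestasis models miR-30a-3p alone was called. It rose by log2 2.45 (SE 0.76, edgeR adjusted p = 0.0174). Its reads at 24 h were 347 against 45 in the vehicle library for ANIT and 320 against 13 in the vehicle library for MDA. As libraries differed in depth, this was 2240 against 894 RPM for ANIT and 1832 against 917 RPM for MDA. miR-30d-5p (1.67) and miR-30e-3p (1.40) did not pass the test, and the other 4 members lay between -0.34 (miR-30e-5p) and 0.67 (miR-30a-5p). Of all tested miRNAs 8.21% were higher and 2.99% lower, and the members' median was 0.67 against 0.10 over all. The call of miR-30a-3p was lost with total counts (1.17) and without ANIT (3.17), MDA (1.86), CCl4 (2.45) or DEX (2.34). In the same comparison 3 of 3 tested hepatocyte miRNAs (median log2 3.75) and 2 of 3 epithelial miRNAs (3.77) were higher and 1 of 4 red cell miRNAs lower, and their part in the change of miR-30a-3p was not tested.

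No member was called in the steatosis models at Day 1, in which edgeR called 0% of tested miRNAs in either direction, and 4 miRNAs, none of them a member, had an unadjusted p under 0.05. DESeq2 called 1 miRNA there, which was no member. The members' changes ran from -1.04 (miR-30b-5p) to 1.04 (miR-30a-3p). Day 1 is the first sampling of daily dosing, and later days are not in this fit. The summed hepatocyte miRNAs made up 6.73% of reads at Day 1 and 29.7% at Day 3 in CCl4. In DEX they made up 13.6% at Day 1 and 9.40% at Day 2. Over the 6 models together no member was called either, beside 2.99% of tested miRNAs higher and 1.49% lower. miR-30a-3p (log2 1.64, SE 0.52, edgeR adjusted p = 0.0639) and miR-30d-5p (1.50, SE 0.50, edgeR adjusted p = 0.0760) came closest, and they were the 2 members with an unadjusted p under 0.05. DESeq2 called this pair higher, among 23 of 134 tested miRNAs called higher and 18 lower.

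The difference between injury types was tested in the same fit. miR-30b-5p rose more in the hepatocellular than in the cholestasis models, by log2 3.97 (SE 1.09, edgeR adjusted p = 0.00736), and more than in the steatosis models, by 5.20 (SE 1.13, edgeR adjusted p = 0.000248). miR-30a-5p rose more in the hepatocellular than in the steatosis models, by 2.97 (SE 1.14, edgeR adjusted p = 0.0305). This is 1 of 7 members called higher in the first difference, beside 5.97% of tested miRNAs, and 2 of 7 in the second, beside 16.4%. Between cholestasis and steatosis no member was called, and edgeR called 0% of tested miRNAs, with 6 of 134 at an unadjusted p under 0.05 and none by DESeq2.

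These differences rest on few libraries. With total counts, of the 3, only that of miR-30b-5p between hepatocellular and steatosis models held (3.50). None of the 3 held with the last library of each model, with all 24 treated libraries or without CCl4, and 5 passed without APAP, the added ones being those of miR-30e-5p. Without TAA, whose vehicle library had 9 reads of miR-30b-5p, its difference between hepatocellular and cholestasis models was 3.02 and no longer passed, and that of miR-30a-5p between hepatocellular and steatosis models was 2.82 and no longer passed. That of miR-30b-5p to the cholestasis models was also lost without MDA (3.58), and the call of miR-30a-5p without DEX (3.07). Between hepatocellular and steatosis models, 0 of 115 tested miRNAs were called with the last library and 0 of 148 with all 24 treated libraries. Between hepatocellular and cholestasis models, 2 of 115 were higher and 2 lower with the last library, and 0 of 148 were called with all 24. The fit without CCl4 leaves DEX alone in its type.

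**Figure D4:**
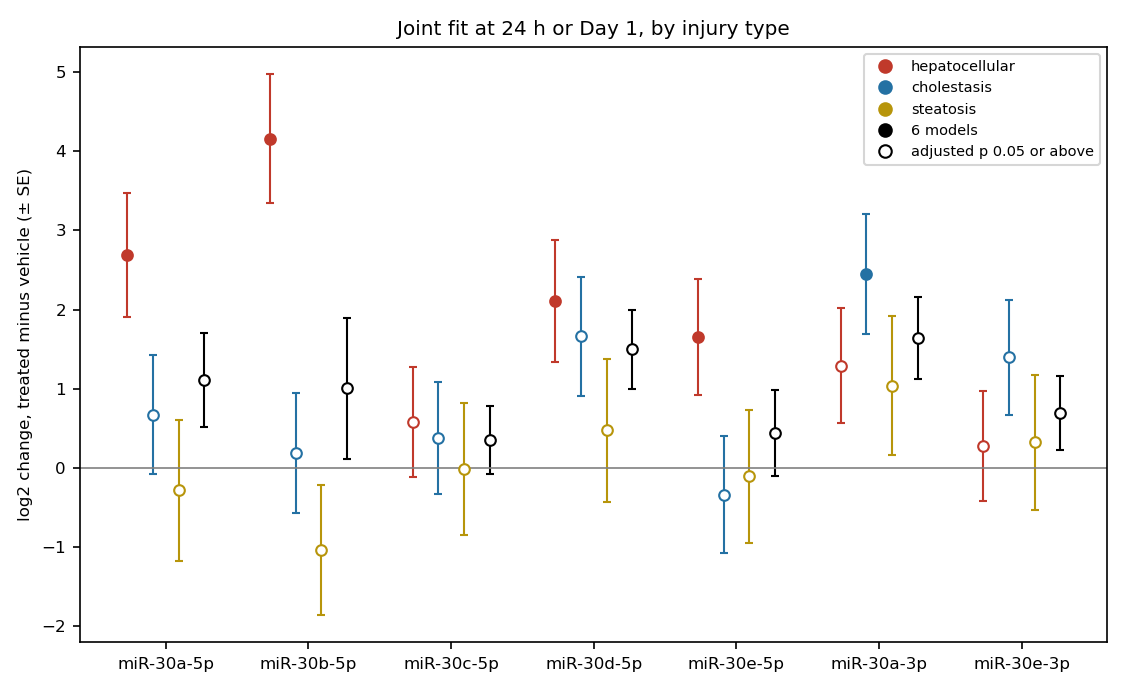
Log2 change between treated and vehicle libraries at 24 h or Day 1 (± SE) for each member, by injury type and over the 6 models, with filled points where the adjusted p of edgeR's quasi-likelihood test was under 0.05. With TMM scaling, as plotted, 4 guides are filled in the hepatocellular models, miR-30b-5p highest at 4.16, and miR-30a-3p in the cholestasis models at 2.45, while with total counts miR-30e-5p stands at -0.18 in the hepatocellular models.

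The ratio of 3p to 5p reads is taken within a library and needs no scaling between libraries. The 5p arm exceeded the 3p arm of miR-30a in all 29 libraries, while the 3p arm of miR-30e exceeded its 5p arm in 23 of 24 treated libraries and 5 of 5 vehicle libraries. The ratio of miR-30e was 0.756 (TAA 24 h) to 10.1 (MDA 24 h) in treated libraries with a median of 5.02, against 2.78 (APAP), 3.12 (TAA), 2.26 (ANIT), 1.24 (MDA) and 3.92 (CCl4 and DEX) in vehicle libraries. Of the 17 hairpins with both arms at 10 reads or more in 4 of the 11 libraries of the joint fit, 10 had more 3p than 5p reads on average in vehicle libraries. The ratio of miR-30a was 0.0269 (TAA 24 h) to 0.498 (MDA 24 h) in treated libraries with a median of 0.203, against 0.0873 (APAP), 0.129 (TAA), 0.0688 (ANIT), 0.0619 (MDA) and 0.112 (CCl4 and DEX) in vehicle libraries.

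Against the own vehicle library, both ratios were above it in 22 of 24 libraries. The exceptions, for both hairpins, were APAP 24 h and TAA 24 h. Over the 19 hairpins with both arms at 10 reads or more in 4 of all 29 libraries, 56.4% of ratios were above the vehicle library, and the count per hairpin ran from 2 to 23 of 24 with a median of 13. The exact 95% interval of the change excluded 1 upwards in 18 libraries for miR-30a and in 13 for miR-30e, and downwards in 2 for each, beside 19.5% upwards and 8.11% downwards over the 19 hairpins. Without MDA, whose vehicle library had 13 reads of miR-30a-3p and 21 of miR-30e-3p, 17 of 19 libraries were above for each.

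In MDA at 24 h the miR-30a ratio was 8.05-fold that of the vehicle library (4.51 to 15.6) and the miR-30e ratio 8.21-fold (3.48 to 19.0). In ANIT at 6 h they were 4.57-fold (3.18 to 6.66) and 4.31-fold (2.28 to 8.36). TAA at 24 h stood at the other end, with 0.209 of the vehicle ratio for miR-30a (0.149 to 0.297) and 0.242 for miR-30e (0.144 to 0.399), and APAP at 24 h with 0.685 (0.509 to 0.937) and 0.603 (0.386 to 0.931). Across the 29 libraries the log2 ratios of both hairpins had a Spearman correlation of 0.76, as a description. Both come from the same libraries, and the part in it of how reads were split between near-identical arms was not tested.

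At 24 h or Day 1 treated and vehicle libraries did not separate. The mean log2 ratio of miR-30a was -2.87 ± 1.59 in 6 treated libraries and -3.48 ± 0.44 in 5 vehicle libraries, a difference of 0.61 (two-sided exact permutation test, p = 0.442, adjusted p = 0.907 over 17 hairpins). For miR-30e it was 1.70 ± 1.33 in treated and 1.30 ± 0.63 in vehicle libraries, a difference of 0.40 (exact permutation test, p = 0.556, adjusted p = 0.907). Of the 17 hairpins 0% were called and none had an unadjusted p under 0.05, in a design with 462 arrangements of the libraries. The difference was above 0 in 4 of the 6 models for both hairpins. With all 24 treated libraries the differences were 0.96 and 0.86 (exact permutation test, p = 0.0341 and 0.0257), which did not pass adjustment over 19 hairpins (adjusted p = 0.130 for both). That test takes the times of a model as independent libraries and leaves out the pairing with the own vehicle library. Its p-values therefore do not measure the spread between models. The sign of the miR-30e difference at 24 h or Day 1 turned without MDA (-0.18), and the adjusted p ran from 0.533 to 0.984 for both hairpins with single models left out.

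**Figure D5:**
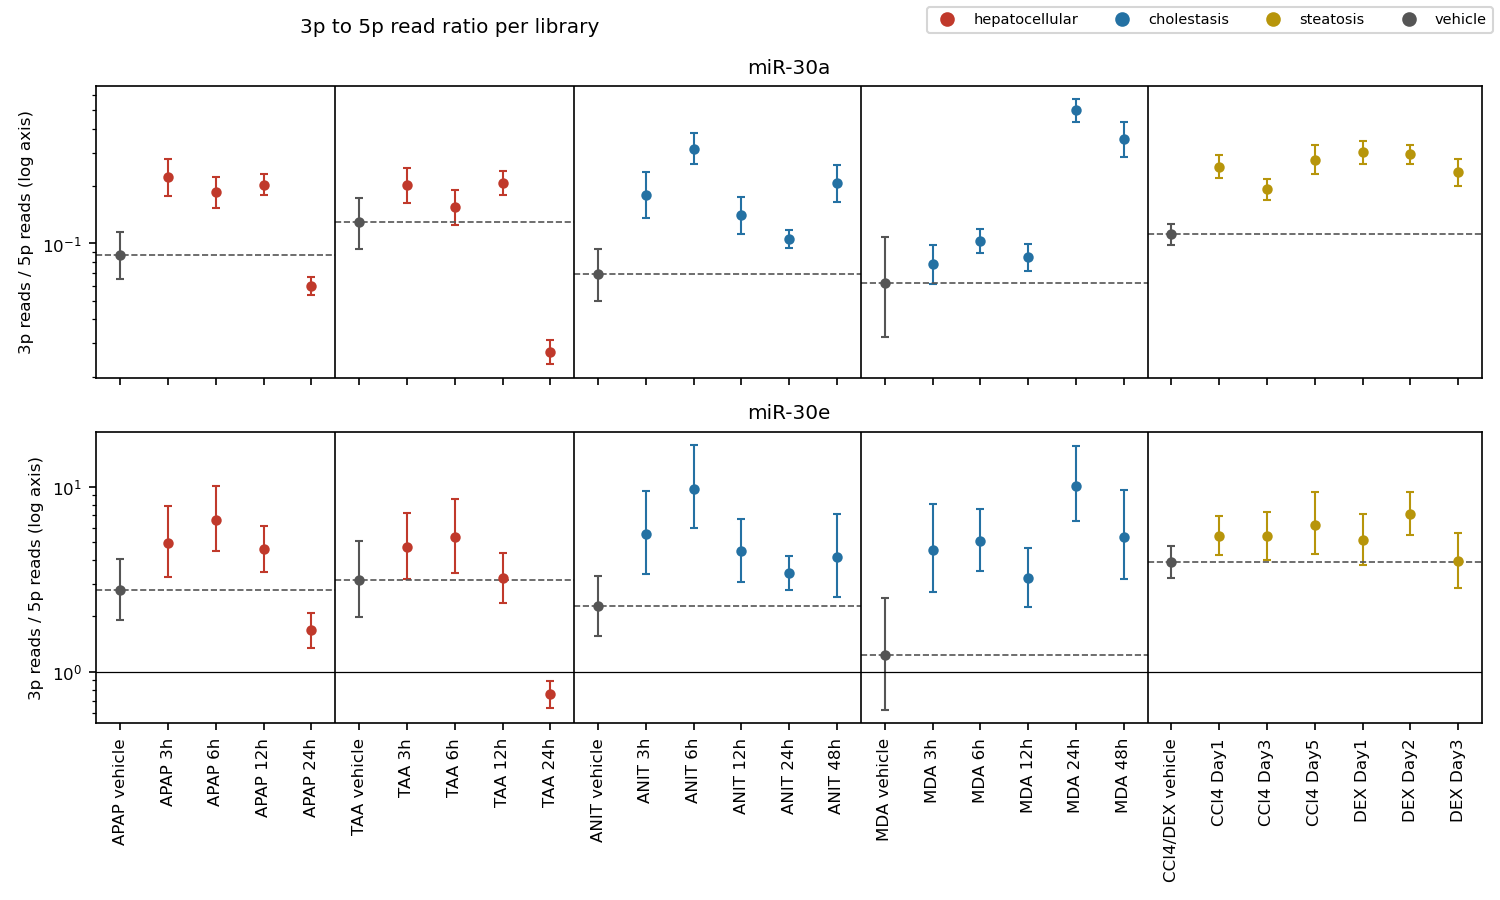
Reads of the 3p arm divided by reads of the 5p arm (log axis) for miR-30a (top) and miR-30e (bottom) in each library, with exact 95% counting intervals, a dashed line at each vehicle library's value and vertical lines between vehicle groups. Both ratios fall below the vehicle line in APAP 24 h and TAA 24 h and are highest in MDA 24 h (0.498 and 10.1).

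The members of miR-30a and miR-30e were closer to the same arm of the other hairpin than to the other arm of their own. Over all 29 libraries, with 1 TMM over all libraries, the Spearman correlation was 0.81 between miR-30a-5p and miR-30e-5p, 0.79 between miR-30a-3p and miR-30e-3p, and 0.76 between miR-30a-5p and miR-30b-5p. Between the arms of 1 hairpin it was 0.47 for miR-30a and -0.01 for miR-30e. Total counts gave 0.78 for the pair of guides and 0.61 for the pair of 3p arms, and 0.14 (miR-30a) and 0.33 (miR-30e) for the arms of 1 hairpin. These correlations are descriptions over libraries that share vehicle groups and depth. How reads were split between near-identical arms of the 2 hairpins is not given, and its part in the correlations was not tested.

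Outside the family, among 98 miRNAs with enough reads and with 1 TMM over all libraries, the closest patterns were those of miR-29a-3p (0.86) and miR-101b-3p (0.78) for miR-30a-5p, miR-27b-3p (0.81) and miR-148a-5p (0.71) for miR-30b-5p, and miR-26a-5p (0.66) and miR-103-3p (0.63) for miR-30c-5p. For miR-30d-5p they were miR-3559-3p (0.85) and miR-192-5p (0.85), a miRNA of liver and intestine. For miR-30e-5p they were miR-374-5p (0.76) and miR-27b-3p (0.75). The 3p arms were closest to miR-101b-3p (0.79) and miR-122-5p (0.75) for miR-30a-3p, and to miR-122-5p (0.67) and miR-148a-3p (0.65) for miR-30e-3p. miR-122-5p, the main hepatocyte miRNA, had a correlation of 0.78 with miR-30d-5p but 0.14 with miR-30e-5p and -0.28 with miR-30c-5p. With total counts its correlation was below 0 with every member, from -0.77 (miR-30c-5p) to -0.01 (miR-30a-3p), with -0.58 for miR-30e-3p, so the sign turned for 6 of the 7 members, all but miR-30c-5p. The closest patterns changed with the scaling too, and 3 of the 14 named miRNAs stayed with their member in total counts (miR-29a-3p for miR-30a-5p, miR-26a-5p for miR-30c-5p and miR-27b-3p for miR-30e-5p). In total counts miR-30a-3p was closest to miR-151-3p (0.51), miR-30e-3p to miR-126a-3p (0.83) and miR-30d-5p to miR-99a-5p (0.69).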

How the data were processed

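The authors deposited, per model, read counts per mature miRNA and library, and a normalized signal on fewer miRNAs, from the values mostly the count over 1 factor per library. The submitters' processing notes name DESeq at version 1.28.0, without its role. Per the labels' protocols, RNA came from 200 µL of plasma and libraries had 15 PCR cycles. Not given in the sources used here: build, miRNA release and counting tool. Counts were used for all main results and the deposited signal as an alternative. The CCl4 and DEX vehicle columns both sum to 225741 reads, with 36 miRNAs apart by 4 reads or fewer, less than sampling noise, so they were counted as 1 library. Of the ANIT groups, 4 have 2 labelled samples and 1 column.

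The members and lists were chosen with earlier results of these data known. Every member is named. Outside the family, the 2 miRNAs with the highest Spearman correlation to each member are named. Libraries were scaled by TMM on miRNAs with at least 20 reads in 1 library of the model (edgeR 4.0.16, R 4.3.3). Ratios have exact conditional binomial 95% intervals from the reads, composition and arm changes exact conditional odds ratio intervals (scipy 1.17.1). Intervals cover counting error only, since each group is 1 column of reads. They take reads as independent, which PCR copies are not, so they may be too narrow even for that. P-values measure the spread between models, in the fit by injury type mostly as pooled over all tested miRNAs. The exceptions are the fits and tests with all 24 treated libraries, in which the times of a model count as replicates. The members' hepatocellular SE lay between 0.70 and 0.82. miR-30b-5p, for 1, had log2 ratios to vehicle of 3.10 in APAP and 4.96 in TAA at 24 h. Whether libraries differ by animal or only by preparation is not given. The joint fit used miRNAs with at least 10 reads in 4 of 11 libraries and the vehicle library as a block, and its SE is the log2 change divided by the square root of the F statistic of the test. Arm ratios used a pseudocount of 0.5 in tests. Alternatives were DESeq2 1.42.0, total counts, other filters, the last or all treated libraries, and leaving out each model. Scripts were tested on simulated data.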

Additional observations from a re-analysis of the deposited data

Results flagged for a closer look

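Between injury types, 3 differences passed the test of the difference itself in the joint fit, edgeR's quasi-likelihood test over 134 miRNAs. The log2 change of miR-30b-5p was larger in the hepatocellular than in the cholestasis models by 3.97 and than in the steatosis models by 5.20, and that of miR-30a-5p was larger in the hepatocellular than in the steatosis models by 2.97. The TAA vehicle library held 9 reads of miR-30b-5p, the lowest scaled value of the 5 vehicle libraries, and without TAA its difference to the cholestasis models and the difference of miR-30a-5p no longer passed. Among 18 groups of 5 vehicle or 6 treated libraries (7 member levels and 2 arm ratios), no library stood apart by Dixon's criterion.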

How the results depend on the processing

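Of 811 alternative values, 622 kept their direction and their side of the threshold (counts stayed within 1.5 times), and 20 changed sign. The 622 include those of a pseudocount of 1, which could not move a call against the vehicle library, since these calls use no pseudocount. Scaling mattered most. With total counts the family had 13 higher and 48 lower calls, and of the 58 called ratios 25 kept the call, 18 lost it and 15 had the opposite sign, while no other scaling or filter turned a sign. The log2 ratios that turned were, in APAP 12 h, -0.24 (miR-30a-3p), -0.77 (miR-30d-5p) and -1.31 (miR-30e-3p), in TAA 6 h -0.45 (miR-30a-3p) and -0.0084 (miR-30b-5p), in TAA 12 h -0.34 (miR-30a-3p), -1.03 (miR-30a-5p) and -0.68 (miR-30d-5p), and in TAA 24 h -0.64 (miR-30d-5p). They were -0.067 in ANIT 48 h (miR-30b-5p), -0.28 (miR-30d-5p) and -0.25 (miR-30e-3p) in MDA 24 h, -0.28 in CCl4 Day 3 (miR-30a-5p), and -0.38 (miR-30d-5p) and -0.085 (miR-30e-3p) in CCl4 Day 5. In the hepatocellular fit with total counts miR-30c-5p (-1.26), miR-30e-5p (-0.18), miR-30a-3p (-0.55) and miR-30e-3p (-1.56) turned. Total counts differ from TMM by 1 factor per library, which sets these turns by construction.

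The 12 lower calls of the family became 6 with DESeq2 size factors, with the authors' signal and with at least 5 reads, 1 against each of the 5 vehicle libraries and 5 without MDA, an alternative added after seeing the data. Over the 6 models, 0 members became 2 with DESeq2 or the last library of each model, 1 with at least 50 reads in 4 libraries and 3 with all 24 treated libraries. Of all tested miRNAs, 4 of 134 were called higher in the main fit and 23 of 134 with DESeq2. It was 20 of 115 with the last library, 5 of 77 with at least 50 reads and 18 of 148 with all 24 treated libraries. The 4 hepatocellular calls became 1 with total counts, 3 with no filter beyond 1 read, 5 with at least 50 reads in 4 libraries (miR-30a-3p added), 0 with all 24 treated libraries and 2 to 4 with single models left out (2 without CCl4 or DEX). The 1 cholestasis call became 2 with DESeq2, 0 with total counts, 0 with no filter beyond 1 read, and 0 to 1 with single models left out. The 3 differences between injury types became 1 with total counts, 0 with the last or all treated libraries, and 0 to 5 with single models left out. Leaving out single models gave log2 arm ratio differences of 0.12 to 1.22 for miR-30a and -0.18 to 0.90 for miR-30e, the lowest of each without MDA. Apart from the scaling, the cause was not tested. Among all tested miRNAs, hepatocellular higher calls were 36 of 134 in the main fit and 12 of 134 with total counts. With no filter beyond 1 read they were 53 of 264, with at least 50 reads 25 of 77. With all 24 treated libraries they were 5 of 148. Cholestasis higher calls were 11 of 134 in the main fit and 13 of 134 with DESeq2. With total counts they were 3 of 134, and with no filter beyond 1 read 9 of 264.

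By replicate number, no paired analysis was possible because the columns carry none: the ANIT groups with 2 labelled samples have 1 column each. By model, the joint fit keeps the vehicle library as a block, and a two-sided exact sign-flip permutation test of the 6 differences in arm ratio to the own vehicle library (CCl4 and DEX share theirs) gave p = 0.469 for miR-30a and 0.656 for miR-30e (adjusted p = 0.885 for both). Depth limits the ratios to the MDA vehicle library of 14176 reads, where 3 reads are 0.0212% of the total, and those of miR-30b-5p in TAA, with 9 reads in the vehicle library.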
